A study of Mus musculus with 81 samples.

Results

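The 8 genes described here encode myeloid cell surface receptors of the Siglec and Cd300 families, namely Siglec1, Siglece, Siglecf, Cd33, Cd300a, Cd300lb, Cd300ld and Cd300lf. They were chosen by symbol and are 8 of the 54079 genes counted in every library. The annotation held 13 other Siglec and Cd300 genes, which are treated separately further on. Macrophages and macrophage progenitors with conditional deletion of H3f3a and H3f3b, the genes of the replacement histone H3.3, were compared with wild-type (WT) cells. RNA was sequenced in 81 libraries from 5 experiments. WT mice were H3f3a fl/fl H3f3b fl/fl, and conditional knockout (cKO) mice carried the same floxed alleles with LysM cre/cre, in which Cre replaces both copies of the myeloid gene Lyz2. Because the WT mice carried no Cre, the loss of H3.3 cannot be told apart from the presence of Cre and the loss of Lyz2. Bone marrow cultures of both genotypes were taken on days 3, 5 and 7. The labels call the cells of days 3 and 5 progenitors of bone marrow-derived macrophages (BMDMs), and those of day 7 BMDMs. BMDMs were also taken on day 8, either untreated or after 12 h of interferon-γ (IFNγ), and peritoneal macrophages of both genotypes were taken in a separate experiment. In the antibody experiment, WT and cKO BMDMs received no antibody, a control antibody or an antibody against IFNAR1, the receptor for type I interferon. The last experiment held 3 sets of WT and cKO BMDMs, which the labels separate only by library name, together with BMDMs from cKO:StingKO, cKO:MavsKO and cKO:Irf7KO mice. In these double knockouts germline deletion of Sting (an adaptor of DNA sensing), Mavs (an adaptor of RNA sensing) or Irf7 (a factor that induces interferon genes) was added to the cKO genotype. Each group held 3 libraries, except the cKO groups of day 8 with 2 each, and the labels number them as biological replicates without saying whether each came from a separate animal, so p-values measure the spread between these libraries. A pair of further cKO libraries of day 8 carried labels that disagree on treatment and entered no comparison.

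Siglecs are lectins that bind sialic acid at the ends of glycan chains, and most carry tyrosine motifs in the cytoplasmic tail that recruit the phosphatases SHP-1 and SHP-2 and dampen activation. Siglec1 (CD169) is an exception, an adhesion receptor with a long extracellular part and no such motif, and it is widely used as a marker of interferon-exposed macrophages. Cd300 receptors recognise lipids and other cell surface ligands, and the family pairs inhibitory members such as Cd300a and Cd300lf with activating members such as Cd300lb and Cd300ld, which signal through the adaptors DAP12 (Tyrobp) and FcRγ (Fcer1g).

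On build GRCm38, Siglec1 lies on chromosome 2 at chr2:131069220-131086765. On chromosome 7 lie Siglecf (chr7:43351341-43359531), Cd33 (chr7:43524216-43544428) and Siglece (chr7:43651070-43660161). On chromosome 11 lie Cd300a (chr11:114890041-114904654), Cd300lb (chr11:114922781-114934386), Cd300ld (chr11:114982274-114989922) and Cd300lf (chr11:115116214-115133992). RefSeq promoter windows (GRCm38.p6), running from 250 bases before to 50 bases after the RefSeq start of each gene, were matched for 7 of the 8 members and not for Siglec1. The RefSeq start can differ from the ends of the spans above, which are from GENCODE. The Cd33 window lies inside the Cd33 span given above and not at its end. Cd300lf and Cd300lb are shown because they differed between the genotypes in opposite directions, and Cd33 and Siglecf because their difference depended on the set. Capitals mark GGAAGT on either strand, a core sequence bound by ETS factors such as PU.1.
Cd300lf (chr11:115133943-115134242, minus strand): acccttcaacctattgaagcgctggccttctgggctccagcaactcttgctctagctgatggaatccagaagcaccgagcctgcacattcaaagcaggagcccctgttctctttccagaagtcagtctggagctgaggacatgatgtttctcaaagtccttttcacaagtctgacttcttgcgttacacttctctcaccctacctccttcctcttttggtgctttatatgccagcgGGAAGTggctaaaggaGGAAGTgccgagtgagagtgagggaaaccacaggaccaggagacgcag
Cd300lb (chr11:114934322-114934621, minus strand): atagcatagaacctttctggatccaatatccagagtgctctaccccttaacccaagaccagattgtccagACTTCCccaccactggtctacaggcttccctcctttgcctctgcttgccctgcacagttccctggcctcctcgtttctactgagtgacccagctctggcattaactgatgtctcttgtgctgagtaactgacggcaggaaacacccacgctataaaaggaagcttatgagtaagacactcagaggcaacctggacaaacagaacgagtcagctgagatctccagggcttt
Cd33 (chr7:43533122-43533421, minus strand): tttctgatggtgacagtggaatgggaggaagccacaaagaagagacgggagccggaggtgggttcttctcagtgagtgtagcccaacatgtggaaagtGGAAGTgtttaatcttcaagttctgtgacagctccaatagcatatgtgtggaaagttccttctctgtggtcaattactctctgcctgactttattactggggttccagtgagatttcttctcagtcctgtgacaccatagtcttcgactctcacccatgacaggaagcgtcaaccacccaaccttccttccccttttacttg
Siglecf (chr7:43351091-43351390, plus strand): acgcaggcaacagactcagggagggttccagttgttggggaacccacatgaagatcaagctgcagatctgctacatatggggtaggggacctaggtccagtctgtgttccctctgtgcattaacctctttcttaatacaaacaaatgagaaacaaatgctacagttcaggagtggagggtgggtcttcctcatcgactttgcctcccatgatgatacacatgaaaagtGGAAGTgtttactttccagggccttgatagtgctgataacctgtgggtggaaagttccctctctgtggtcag

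In the Cd300lf window GGAAGT occurred at 2 places, 14 bases before and 2 bases after the start of the gene. The window of Cd300ld, which is not shown, held 2 matches as well, 141 and 37 bases before the start. The windows of Siglece and Cd300a held none. The Cd300lb window held 1 match, on the reverse strand and 180 bases before the start. The windows of Cd33 and Siglecf held 1 match each, 152 and 22 bases before the RefSeq start, and both matches lay in a run of 16 bases that the windows share. Of the 32851 mouse promoter windows of this length, 23.8% held at least 1 match and 4.18% held 2 or more. The core of the interferon-stimulated response element was searched on both strands as well, and had no match in the 7 windows, against 3.44% of all windows. A match is a description of letters and was not tested as a binding site.

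H3f3a was lower in cKO than in WT in every experiment, at 1.21 to 15.3 CPM (counts scaled to the size of the library) in cKO and double knockout libraries against 33.6 to 93.8 CPM in WT libraries. H3f3b differed in the antibody experiment, with 16.7 to 67.8 CPM in cKO against 295 to 468 CPM in WT, whereas elsewhere the ranges overlapped and no comparison of cKO and WT passed the test. The paper describes the H3f3b deletion as variable, complete in some cKO samples and partial in others. Lyz2, which Cre replaces, was at 1.69 to 81.9 CPM in cKO libraries and at 4465 CPM or more in WT libraries. Tmem173, which encodes Sting, was at 5.01 to 6.10 CPM in cKO:StingKO and at 68.2 to 91.7 CPM in the cKO sets, Irf7 was at 98.3 to 112 CPM in cKO:Irf7KO and at 249 to 470 CPM in the cKO sets, whereas the Mavs counts check nothing about their label, since they did not separate cKO:MavsKO (37.2 to 37.9 CPM) from the cKO sets (36.0 to 51.6 CPM). Libraries held 3614967 to 45581528 counts in genes. The shallowest, cKO with IFNγ on day 8, replicate 1, had 53.1% of its counts on the noncoding RNA Gm26917, against 8.07% to 9.69% in the other libraries of that day, and member calls that rest on it are given with and without it.

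Levels of the receptors were compared with each other per exonic length of the gene (TPM). Cd300lb had the highest mean in every group of WT cultures, at 181 ± 1.21 TPM (SD, n = 3) on day 3 and 291 TPM on average on day 8. Its range overlapped that of the next gene on day 7, without antibody, with the IFNAR1 antibody and in sets 1, 2 and 3. In WT of set 2 it averaged 367 TPM against 364 TPM of Siglec1. In cKO cultures Siglec1 led on days 3, 5 and 7, in all 3 sets and in the 3 double knockouts, at 228 ± 26.5 TPM on day 3 and 470 TPM on average on day 7, and with IFNγ on day 8 its mean was the highest with overlapping ranges. Cd300lb led in the other 4 cKO BMDM groups, which were untreated on day 8 (259 TPM against 173 TPM of Siglec1) or from the antibody experiment. There it overlapped the next gene without antibody and with the IFNAR1 antibody. In peritoneal macrophages of both genotypes the activating receptor Cd300ld led, at 373 TPM in WT and 567 TPM in cKO. Siglecf, the receptor of eosinophils and alveolar macrophages, was the lowest member in 26 of the 27 groups, with group means of 0.149 to 3.83 TPM. Neighbours in the order often overlapped: in WT on day 3 Cd300ld, Cd300a, Siglec1, Cd300lf, Siglece and Cd33 formed a chain in which each gene's range met the next, while Cd300lb above and Siglecf below stood clear of it.

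On day 3 of culture, cKO cells held more Siglec1 and Cd300lf and less Cd300lb transcript than WT cells. Siglec1 stood at 166, 103 and 66.4 CPM in WT and at 595, 457 and 520.4 CPM in cKO. The groups did not overlap, and the difference was 4.70-fold (log2 fold change 2.23 ± 0.47, adjusted p = 0.00808). Cd300lf, an inhibitory receptor that also serves as the entry receptor of murine norovirus, was at 41.0, 55.9 and 58.5 CPM in WT and 100.1, 94.9 and 107 CPM in cKO. Every cKO library lay above every WT library, with a 1.94-fold difference (log2 fold change 0.96 ± 0.19, adjusted p = 0.00618). Cd300lb, which couples to DAP12, ran the other way, at 175, 161 and 165 CPM in WT and 100.3, 113 and 119 CPM in cKO. It was 1.51-fold lower in cKO without overlap (log2 fold change −0.60 ± 0.12, adjusted p = 0.00712), though the call was lost when all libraries numbered 1 were left out of the time course (log2 fold change −0.53 for Cd300lb). Markers of other cells moved with these differences on day 3. Of 4 mast cell and basophil markers tested 3 were higher in cKO, with a sum over the 6 listed of 10.2 to 16.6 CPM against 2.82 to 3.93 CPM in WT, and their part was not tested. In bulk RNA, fewer cells of a type and less RNA per cell cannot be told apart. Thus 3 of the 8 members passed an adjusted p of 0.05 on day 3, where 7.73% of all genes tested did, and the median log2 fold change of the 8 was 0.927 against 0.036 over all genes.

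On day 5, Siglec1 and Cd300lf were called again, 2 of 8 members against 2.83% of all genes. Siglec1 read 327, 127 and 132 CPM in WT and 1227, 389.8 and 452 CPM in cKO. Replicate 1 was the highest library of both genotypes, and the groups did not overlap (log2 fold change 1.82 ± 0.46, adjusted p = 0.0461). The Siglec1 call was lost without WT replicate 2 (1.6 on the log2 scale), without WT replicate 3 (1.61) and without cKO replicate 1 (1.12). Cd300lf was at 29.6, 43.2 and 39.5 CPM in WT and 112, 76.0 and 77.3 CPM in cKO, a 2.36-fold difference that no single library removed (log2 fold change 1.24 ± 0.19, adjusted p = 0.00468). On day 7, Cd300lf was the 1 member called, against 1.4% of all genes, at 26.4, 28.9 and 26.8 CPM in WT and 93.3, 63.3 and 62.1 CPM in cKO. The cKO libraries were all higher, 2.66-fold on average (log2 fold change 1.41 ± 0.20, adjusted p = 0.00227). This call was lost when the 2 groups of day 7 were fitted without the other days (1.42), as was that of Siglec1 on day 5 with its own groups alone (1.83). Stromal markers stood higher in cKO on these days, with 0 of 4 called and sums over 6 of 68.3 to 96.5 CPM against 13.2 to 42.9 CPM in WT on day 5 and 87.9 to 126 CPM against 4.59 to 41.4 CPM on day 7, and their part was not tested.

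Siglec1 on day 7 was at 616, 483 and 274 CPM in WT and 1094, 890.2 and 887 CPM in cKO. The groups did not overlap, but the difference missed the threshold (log2 fold change 1.06 ± 0.46, adjusted p = 0.254). Cd300ld, an activating receptor that couples to FcRγ, stood at 65.8, 65.6 and 79.2 CPM in WT and 136, 95.7 and 107 CPM in cKO (log2 fold change 0.68 ± 0.17, adjusted p = 0.0634). Same-numbered WT and cKO libraries of a day deviated together, and with the replicate number as a block both genes passed on day 7, Siglec1 at a log2 fold change of 1.14 and Cd300ld at 0.67. The block is 1 factor over all 18 libraries of the time course. Same-numbered libraries correlated at −0.235 to 0.276 between WT days 5 and 7, and at −0.382 to −0.284 between WT day 5 and cKO day 7. Block calls of the time course thus assume sharing across days that these values do not show. Siglece, an inhibitory Siglec of neutrophils and macrophages, was highest on day 3 in replicate 1 of each genotype, at 19.2, 8.15 and 13.6 CPM in WT and 52.4, 24.4 and 21.2 CPM in cKO. Unblocked it missed the threshold (log2 fold change 1.26 ± 0.68, adjusted p = 0.302), and with the block it passed at 1.18. The summed level of 8 neutrophil markers on day 3 was 1583 to 3038 CPM in WT and 2732 to 4205 CPM in cKO, with 0 of the 8 called by edgeR, and the part of such cells in the Siglece values was not tested.

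Cd33 and Siglecf were not called in cKO against WT on any day of the time course. Cd33, a sialic acid-binding receptor of myeloid cells, was at 38.5, 44.2 and 55.8 CPM in WT and 101, 81.1 and 90.0 CPM in cKO on day 3, with no overlap (log2 fold change 0.98 ± 0.41, adjusted p = 0.175). On day 7 it spread from 60.2 to 314 CPM within WT alone, and cKO values of 114, 165 and 169.9 CPM fell inside that range (log2 fold change −0.38 ± 0.41, adjusted p = 0.677). Siglecf was at 0.614, 2.17 and 2.70 CPM in WT and 3.71, 3.76 and 2.88 CPM in cKO on day 3 (log2 fold change 0.90 ± 0.44, adjusted p = 0.251). Eosinophil markers moved with it: the sum of 6 was 9.91 to 19.7 CPM in WT and 34.3 to 41.8 CPM in cKO, 2 of the 5 tested were higher, and their part in the Siglecf values was not tested. Cd300a, an inhibitory receptor for phosphatidylserine and phosphatidylethanolamine, gave log2 fold changes of 0.44 ± 0.38, 0.75 ± 0.38 and −0.28 ± 0.38 on days 3, 5 and 7, none of them called.

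**Figure D1:**
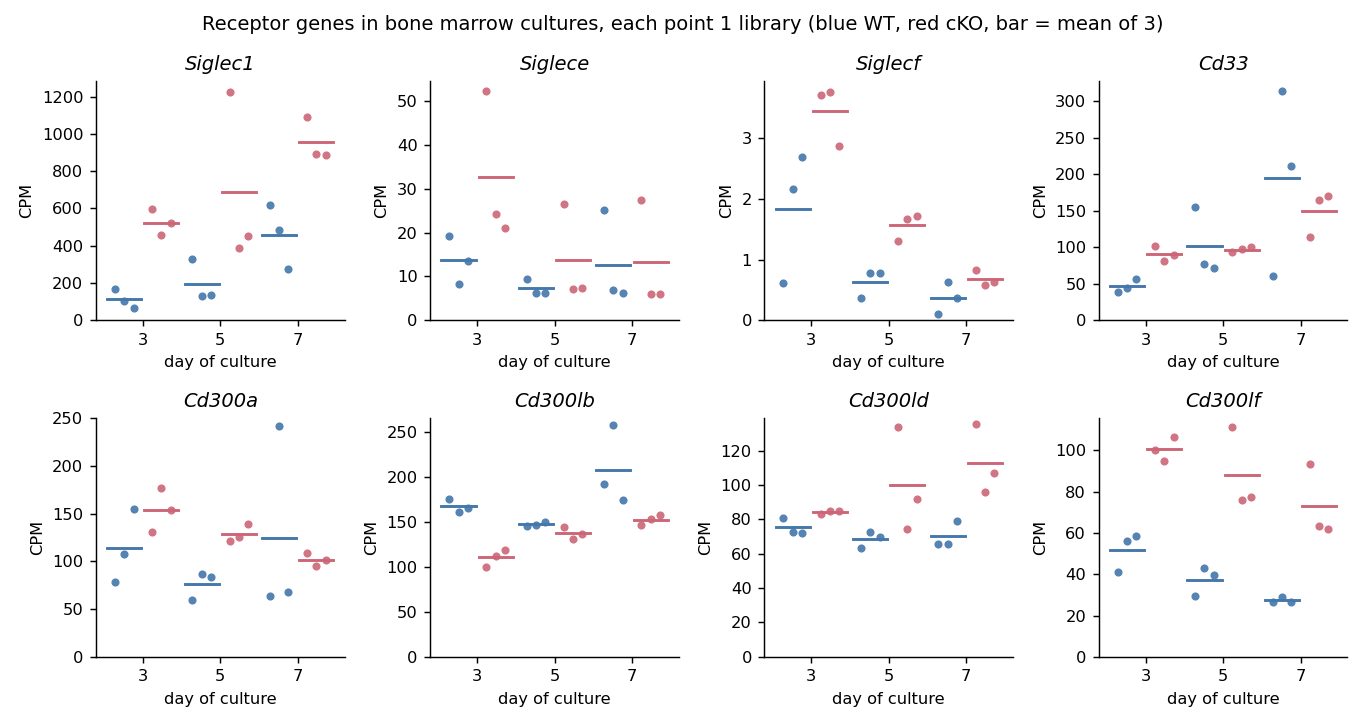
CPM (linear axis from 0) of the 8 receptor genes on days 3, 5 and 7 of bone marrow culture, with 1 point per library (blue WT, red cKO) and a bar at the mean of 3. Cd300lf in cKO lies above WT on each day, Cd300lb in cKO lies below WT on days 3 and 7, and replicate 1 sets the high values of Siglece.

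Between day 3 and day 7 the WT cells gained Siglec1 and Cd33 and lost Siglecf and Cd300lf, so that 4 of 8 members were called where 23.9% of all genes were. Siglec1 rose 4.10-fold, from 166, 103 and 66.4 CPM to 616, 483 and 274 CPM (log2 fold change 2.04 ± 0.47, adjusted p = 0.00674). Cd33 rose 4.23-fold, from 38.5, 44.2 and 55.8 to 60.2, 314 and 211 CPM (log2 fold change 2.08 ± 0.42, adjusted p = 0.00331). Each WT library of day 7 was above each WT library of day 3 for both genes. With these 2 groups fitted alone the calls of Cd33 (2.06) and Siglecf (−2.39) were lost. Cd300lf fell 1.89-fold, to the day 7 values given above (log2 fold change −0.92 ± 0.20, adjusted p = 0.0042). Siglecf fell 5.18-fold, from 0.614, 2.17 and 2.70 CPM (9, 37 and 48 counts) to 0.104, 0.630 and 0.362 CPM (log2 fold change −2.37 ± 0.53, adjusted p = 0.00586). The lowest Siglecf library of day 3 lay inside the range of day 7. Across the same days all 8 neutrophil markers fell in WT (median log2 fold change −4.61) and 3 of 5 eosinophil markers fell, while all 12 interferon genes rose (median 5.00), and the part of each in the receptor values was not tested.

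In cKO cells from day 3 to day 7, Siglecf fell and Cd300lb rose, 2 of 8 members against 14% of all genes. Siglecf went from 3.71, 3.76 and 2.88 CPM to 0.823, 0.586 and 0.629 CPM, 5.03-fold lower without overlap (log2 fold change −2.33 ± 0.48, adjusted p = 0.00461). Cd300lb went from 100.3, 113 and 119 CPM to 146, 154 and 157 CPM, 1.38-fold higher (log2 fold change 0.46 ± 0.12, adjusted p = 0.0207). The Cd300lb call was lost without cKO day 3 replicate 1 (0.39) or 2 (0.48) and without cKO day 7 replicate 2 (0.46) or 3 (0.45). Siglec1 in cKO was already high on day 3 and differed from day 7 by 0.87 ± 0.45 on the log2 scale (adjusted p = 0.226). With the replicate number as a block, which paired the cKO days, Siglec1 (0.86) and Siglece (−1.53) were also called from day 3 to day 7, and Siglece (−1.42) from day 3 to day 5.

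Adjacent days gave no edgeR call among the 8 members. From day 5 against day 3 in WT, edgeR called 2.64% of all genes. An unadjusted p under 0.05 was found for 3 members and for 3285 of the 15955 genes tested. DESeq2 called 1 member, Siglecf (log2 fold change −1.54). Day 7 against day 5 in WT (0.238% of all genes called) gave 4 members and 2760 of all genes under an unadjusted 0.05. DESeq2 called 1 member there, Cd300lb (0.48). In cKO the corresponding numbers of members were 2 and 0 for day 5 against day 3 (3.59% of all genes called). They were 1 and 0 for day 7 against day 5 (0.0564%). Of all genes, 2938 and 797 were under an unadjusted 0.05 in these 2 comparisons. Whether the cKO effect itself changed from day 3 to day 7 was tested as an interaction. By edgeR 0.0439% of all genes passed, and none of the members did by edgeR or DESeq2. Under an unadjusted 0.05 were 1 member, Cd33, and 2480 of all genes. The Cd33 difference between the effects was −1.36 ± 0.58 on the log2 scale, and that of Siglec1 was −1.17 ± 0.64, so the days cannot be called different for either gene.

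The effect of the cKO genotype was then set side by side over the 9 comparisons of cKO and WT that have libraries of their own: days 3, 5, 7 and 8 untreated, peritoneal, no antibody, and sets 1 to 3. Sets 1 and 3 may not be independent, since their same-numbered libraries deviated together, so calls are given over 8 comparisons with these sets counted once. Cd300lf was higher in 6 of the 8, with fitted log2 fold changes of 0.96 to 2.76 over all 9. Siglec1 was higher in 5 of 8, over a range of 0.38 to 2.23. Cd300lb was lower in 3 of 8, over a range of −0.60 to 0.11. Siglecf was higher in 1 of the 6 in which it was tested (sets 1 and 3), and Cd33 in 1 of 8 (set 2). Siglece, Cd300a and Cd300ld were called by edgeR in none. Among 11169 genes tested in all 9, those nearest to Cd300lf by mean absolute difference of log2 fold change were Itgb7 (0.236), an integrin subunit, Rnf144a (0.329), a ubiquitin ligase, and Fut7 (0.371), a fucosyltransferase. Nearest to Siglec1 were 9330175E14Rik (0.4), Nlrc5 (0.434), a transactivator of MHC class I genes, and Mov10 (0.442), an RNA helicase. Nearest to Cd300lb were Rab31 (0.066), a Rab GTPase, Sdhaf3 (0.096), an assembly factor of succinate dehydrogenase, and Snap29 (0.111), a SNARE protein.

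**Figure D2:**
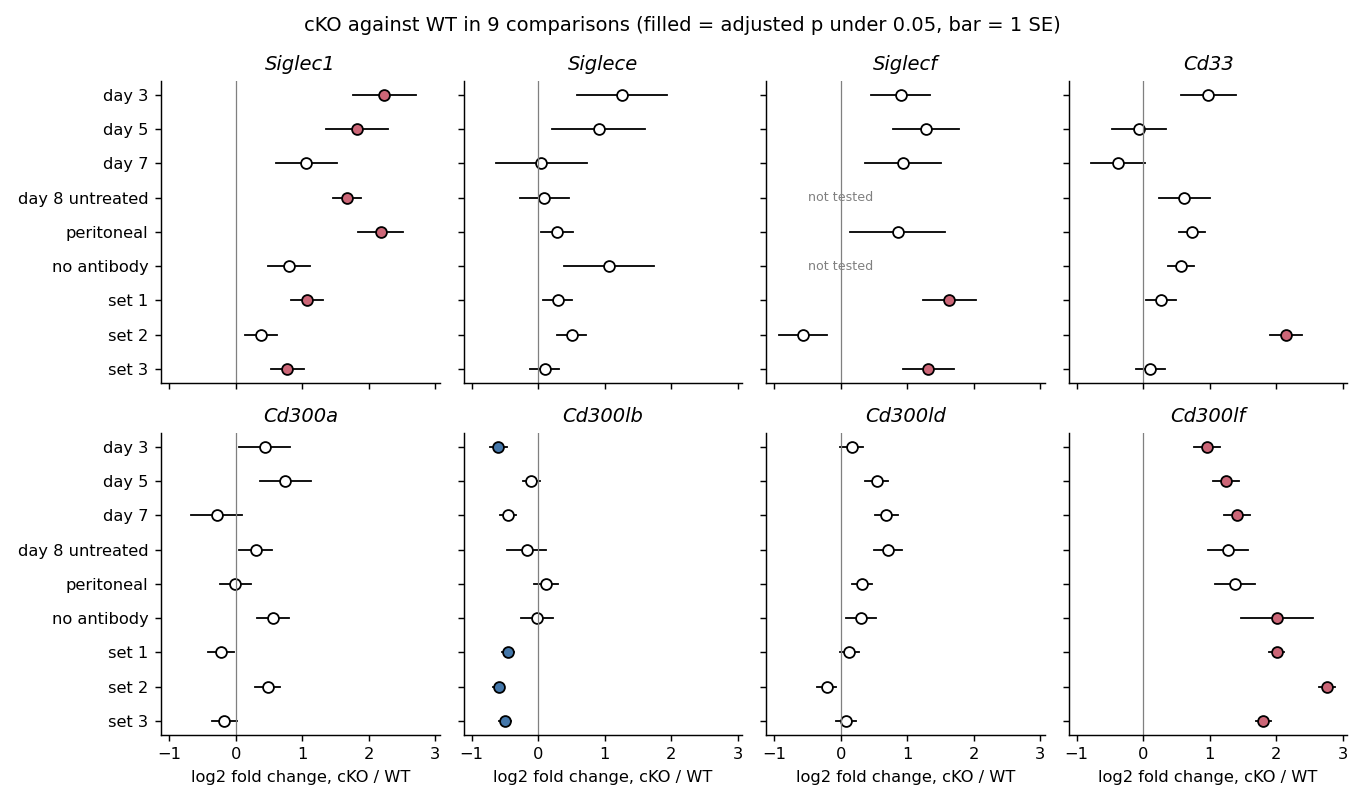
Log2 fold change of cKO over WT (horizontal axis) for each of the 8 genes in 9 comparisons (vertical axis), with bars of 1 SE and filled points where the adjusted p is under 0.05 (red higher, blue lower). Cd300lf lies right of 0 in all 9 comparisons, and Cd33 stands out in set 2 alone at 2.15.

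On day 8 without treatment, Siglec1 was higher in cKO, 1 of 7 members tested against 0.612% of all genes. It was at 112, 113 and 77.9 CPM in WT and 321 and 321 CPM in cKO, 3.18-fold apart (log2 fold change 1.67 ± 0.21, adjusted p = 0.00625). The call was lost without cKO replicate 1 (1.65) or 2 (1.67), which leaves 1 cKO library assumed to vary like the other groups. Cd300lf was at 31.8, 16.5 and 23.8 CPM in WT and 57.7 and 58.2 CPM in cKO, with no overlap but short of the threshold (log2 fold change 1.27 ± 0.30, adjusted p = 0.149), and DESeq2 called it at 1.25. Cd300ld was at 94.7, 75.1 and 83.2 CPM in WT and 134 and 142 CPM in cKO (log2 fold change 0.71 ± 0.21, adjusted p = 0.312). Siglecf was too low to be tested on day 8, at 0 to 0.700 CPM.

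IFNγ lowered most of these receptors and raised Cd300lf in both genotypes. In WT, 6 of 7 members were called, against 40.1% of all genes, and in cKO 5 of 7, against 33.6%. Cd300lf rose in WT from 31.8, 16.5 and 23.8 CPM to 66.4, 48.5 and 52.9 CPM, 2.33-fold (log2 fold change 1.22 ± 0.28, adjusted p = 0.006). In cKO it rose from 57.7 and 58.2 CPM to 310.3 and 161 CPM, 4.03-fold (log2 fold change 2.01 ± 0.34, adjusted p = 0.00159). Neither genotype's treated libraries overlapped its untreated libraries, and without the shallow cKO replicate 1 the Cd300lf rise in cKO was still called at 1.5. Cd300lf overlaps Rab37 on the opposite strand and Cd300lb overlaps Gm11699, and these libraries do not keep strand. The partners were low, at 0.0710 to 3.42 CPM for Rab37 and 0.446 to 8.55 CPM for Gm11699 over all placed libraries.

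Siglece nearly disappeared with IFNγ. Untreated WT libraries held 20, 15 and 27 Siglece counts and treated ones 2, 1 and 2, while untreated cKO libraries held 23 and 26 and treated ones 0 and 2. Pooled per depth, the untreated level was 10.1 times the treated level in WT (95% interval for counting error 4.1 to 32.1) and 11 times in cKO (2.89 to 93.6). Both falls were called, with adjusted p = 0.000394 in WT and 0.00335 in cKO by edgeR. The cKO call was kept without the shallow IFNγ replicate 1 and lost when the 2 groups were fitted alone. Cd33 fell 4.0-fold in WT, from 136, 61.6 and 96.8 to 38.7, 15.3 and 19 CPM (log2 fold change −2.0 ± 0.37, adjusted p = 0.00187). In cKO it fell 5.05-fold, from 164 and 137 to 21.7 and 35.5 CPM (log2 fold change −2.34 ± 0.47, adjusted p = 0.00394), and without IFNγ replicate 1 the Cd33 fall was still called at −2.06.

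The activating receptors fell as well. Cd300lb went from 199, 248 and 219 CPM to 93.5, 68.8 and 111 CPM in WT (log2 fold change −1.29 ± 0.26, adjusted p = 0.00332) and from 186 and 208 CPM to 50.1 and 111 CPM in cKO (log2 fold change −1.25 ± 0.33, adjusted p = 0.0148). Without cKO IFNγ replicate 1 the cKO value for Cd300lb was −0.80, still called, without cKO IFNγ replicate 2 it was −2.0, and the call was lost without untreated cKO replicate 1 (−1.34) or 2 (−1.20). Cd300ld fell by 1.34 on the log2 scale in WT (SE 0.20, adjusted p = 0.000429) and by 0.83 in cKO (SE 0.24, adjusted p = 0.0225). The Cd300ld call in cKO was kept without IFNγ replicate 1 (−0.82) and lost without untreated replicate 1 (−0.88) or 2 (−0.81). With the 2 cKO groups fitted alone the calls of Cd300lb (−1.24) and Cd300ld (−0.80) were lost. Cd300a fell in WT, from 121, 111 and 115 CPM to 78.4, 39.0 and 48.3 CPM (log2 fold change −1.06 ± 0.23, adjusted p = 0.00446), and gave −0.21 ± 0.28 in cKO (adjusted p = 0.599). Siglec1 was not called in either genotype, with −0.48 ± 0.20 in WT and −0.09 ± 0.24 in cKO, although all 12 interferon genes rose in both. DESeq2 called Siglec1 in WT at −0.49.

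Under IFNγ, cKO and WT differed in 4 of 7 members, all higher in cKO, against 4.83% of all genes. Cd300lf was 4.17-fold higher (log2 fold change 2.06 ± 0.30, adjusted p = 0.00674) and Siglec1 4.17-fold higher, at 237 and 363 CPM against 72.5, 78.1 and 66.0 CPM (log2 fold change 2.06 ± 0.22, adjusted p = 0.0015). Cd300ld was at 79.1 and 76.8 CPM in cKO and 43.6, 24.3 and 31.7 CPM in WT (log2 fold change 1.23 ± 0.22, adjusted p = 0.0161). Cd300a was at 142 and 106 CPM in cKO and 78.4, 39.0 and 48.3 CPM in WT (log2 fold change 1.15 ± 0.26, adjusted p = 0.0355). None of the 4 genes overlapped between the genotypes. Without cKO replicate 1 the 4 calls held, at 1.54 for Cd300lf, 2.36 for Siglec1, 1.22 for Cd300ld and 0.96 for Cd300a. Without WT IFNγ replicate 3 the calls of Cd300lf (2.02), Cd300ld (1.19) and Cd300a (1.07) were lost, and that of Cd300a also without WT IFNγ replicate 2 (0.96). With only the 2 IFNγ groups fitted, Siglec1 alone stayed called, and Cd300lf gave 2.11, Cd300ld 1.26 and Cd300a 1.19. The response to IFNγ itself did not differ between genotypes for any gene by the edgeR interaction (0% of all genes), with 1 member, Cd300a at 0.85 ± 0.36, under an unadjusted 0.05 and 0 by DESeq2, and 1105 and 83 of all genes by these 2 counts.

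**Figure D3:**
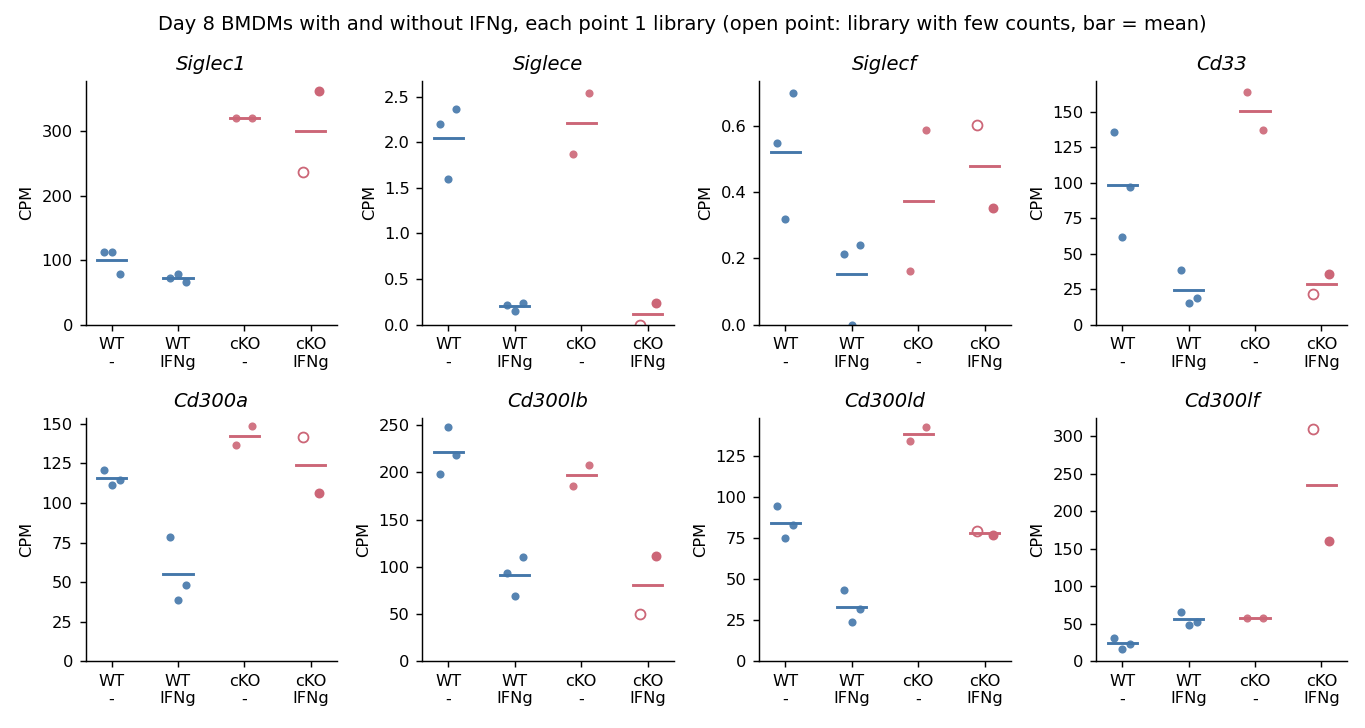
CPM (linear axis from 0) of the 8 receptor genes on day 8 in WT (blue) and cKO (red), untreated (−) or with IFNγ, with 1 point per library, a bar at the mean of 2 or 3 libraries, and an open point for the library of 3614967 counts. Cd300lf is the member that rises with IFNγ in both genotypes, to 310.3 and 161 CPM in cKO.

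Peritoneal macrophages gave 1 call among 8 members, Siglec1, against 0.971% of all genes. It was at 21.8, 30.4 and 42.7 CPM in WT and 93.0, 135 and 205 CPM in cKO, 4.53-fold higher without overlap (log2 fold change 2.18 ± 0.34, adjusted p = 0.0275). The call was lost without WT replicate 2 (2.14), cKO replicate 2 (2.22) or cKO replicate 3 (1.85). The labels and the methods of the study name different library kits for these samples, and Gm26917 took 0.00473% to 0.0225% of their counts against 8.07% to 24.3% in the other experiments (the shallow library aside), so levels are not compared with those of BMDMs. Cd300lf was at 4.83, 11.9 and 8.57 CPM in WT and 18.9, 23.6 and 23.8 CPM in cKO, and Cd33 was at 113, 145 and 158 CPM in WT and 279, 215 and 199 CPM in cKO. For both genes the cKO libraries all lay above the WT libraries, edgeR did not call them (log2 fold change 1.37 ± 0.30, adjusted p = 0.108 for Cd300lf, log2 fold change 0.73 ± 0.19, adjusted p = 0.193 for Cd33), and DESeq2 did at 1.37 and 0.73. Cd300ld, the leading member in this tissue, was at 326, 349.6 and 316 CPM in WT and 411, 467 and 363 CPM in cKO (log2 fold change 0.32 ± 0.15, adjusted p = 0.595). Cd300lb and Cd300a differed between the genotypes by less than their SE (0.11 ± 0.18 and −0.0018 ± 0.23 on the log2 scale). Siglece gave 0.28 ± 0.24 and Siglecf 0.86 ± 0.71.

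In the antibody experiment 4 libraries (WT without antibody replicate 2, WT with IFNAR1 antibody replicates 1 and 2, and cKO with IFNAR1 antibody replicate 1) had low Cd300lf or Cd33 within their group and were chosen for that, so the values of these genes without them are a description and not independent support. The macrophage genes Tmem119 and Cx3cr1 were picked for being low in these libraries, so their levels are a description as well. Tmem119 was at 1.48 to 2.78 CPM in the 4 against 5.05 to 47.2 CPM in the other 14. Cx3cr1 overlapped, at 5.09 to 24.9 CPM against 12.1 to 119 CPM. The heat shock gene Hspa1a was at 2.38 to 521 CPM in the 4 and at 0.699 to 2.9 CPM in the other 14, with overlapping ranges. Calls are given with and without the 4 libraries. Leaving them out moved the number of all genes called by over 1.5 times in 7 of 8 comparisons. The shares of all genes given for this experiment are from the fits with them, so they do not apply to calls made without them. Without antibody, Cd300lf was called in cKO against WT, 1 of 7 members against 7.1% of all genes, at 34.8, 9.23 and 18 CPM in WT and 80.3, 87.0 and 81.7 CPM in cKO (log2 fold change 2.01 ± 0.54, adjusted p = 0.0344). WT spread widely and cKO narrowly, without overlap. The Cd300lf call held only when WT replicate 1 was the library left out, and was lost without WT replicate 2 (1.65) or 3 (1.91) and without cKO replicate 1 (2.03), 2 (1.97) or 3 (2.02). With the 4 libraries left out, Cd300lf (1.63), Siglec1 (0.73), Cd33 (0.42), Cd300a (0.50) and Cd300lb (−0.27) were all called.

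With the control antibody, the genotypes differed in Cd33, 1 of 7 members against 4.45% of all genes, at 66.6, 56.8 and 65.6 CPM in WT and 163, 137 and 145 CPM in cKO. This was 2.36-fold (log2 fold change 1.24 ± 0.20, adjusted p = 0.00188), and no single library removed it. Of 4 stromal markers tested in these groups 0 were called by edgeR, with a sum over 6 of 164 to 306 CPM in cKO against 13.1 to 225 CPM in WT, and Pdgfrb at 8.22 to 15.8 CPM against 0.623 to 5.86 CPM. Their part was not tested. Cd300lf was at 34.4, 32.9 and 38.4 CPM in WT and 84.7, 68.7 and 75.3 CPM in cKO, without overlap but not called (log2 fold change 1.12 ± 0.52, adjusted p = 0.315). Without the 4 libraries, none of which is in these groups, the same groups gave calls for Cd300lf (1.13), Siglec1 (0.80), Cd300ld (0.59), Cd300lb (−0.39) and Cd33 (1.24). With the IFNAR1 antibody edgeR called none of the 7, against 0.675% of all genes. Under an unadjusted 0.05 were 3 members and 2012 of the 17191 genes tested. DESeq2 called 1 member, Cd33 (0.74). Cd33 stood at 189, 111 and 106 CPM in WT and 208, 234 and 239.9 CPM in cKO there, without overlap, and was called at 1.15 without the 4 libraries. Siglec1 under the IFNAR1 antibody was at 208, 282 and 126 CPM in WT and 380.2, 187 and 183 CPM in cKO, with the ranges overlapping (log2 fold change 0.29 ± 0.32, adjusted p = 0.729).

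Against the control antibody, the IFNAR1 antibody gave 3 calls among 7 members in WT (9.89% of all genes), with Siglec1 and Cd33 higher and Cd300a lower. Siglec1 moved from 89.3, 78.8 and 89.2 CPM to 208, 282 and 126 CPM (log2 fold change 1.26 ± 0.32, adjusted p = 0.0256). Cd33 moved from the control values above to 189, 111 and 106 CPM (log2 fold change 1.11 ± 0.20, adjusted p = 0.00441), and Cd300a from 245, 225 and 223 CPM to 99.8, 94.4 and 191 CPM (log2 fold change −0.85 ± 0.25, adjusted p = 0.0419). Of these 3, Cd33 alone was kept without the 4 libraries (0.77), while Siglec1 (0.57) and Cd300a (−0.26) were lost. Siglec1 and Cd300a were also lost when any single library but WT IFNAR1 replicate 3 was left out, at 0.96 to 1.31 for Siglec1 and −0.88 to −0.67 for Cd300a. With only the 2 WT groups fitted, none of the 3 was called (1.27 for Siglec1, 1.12 for Cd33 and −0.84 for Cd300a). The control antibody against none in WT gave 2 calls of 7 (8.9% of all genes), both lower: Siglec1, from 275, 199.6 and 173 CPM (log2 fold change −1.33 ± 0.32, adjusted p = 0.0225), and Cd33, from 164, 107 and 127 CPM (log2 fold change −1.07 ± 0.20, adjusted p = 0.00738). The Siglec1 call was lost without WT no antibody replicate 2 (−1.39) or any 1 of the control antibody replicates (−1.39, −1.28 and −1.36), and the Cd33 call without control antibody replicate 2 (−1.0). Without the 4 libraries Siglec1 (−1.42) and Cd33 (−1.24) stayed called, and Cd300a (0.51) and Cd300ld (−0.84) were called as well. Lyz2 differed between these WT groups too, at 22950 to 23380 CPM with the control antibody and 5282 to 11370 CPM with none, and its part was not tested. Both comparisons use the control antibody libraries.

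In cKO cells the antibodies gave no edgeR call among 7 members. For the IFNAR1 against the control antibody (4.03% of all genes called) 2 members and 3343 of all genes were under an unadjusted 0.05. DESeq2 called 1 member there, Cd33 (0.62). For the control antibody against none (1.46% of all genes called) 1 member and 2068 of all genes were under it. That member, Siglec1 (−1.33), was also called by DESeq2. Siglec1 in cKO went from 467, 393 and 268 CPM without antibody to 180, 155 and 113 CPM with the control antibody, without overlap (log2 fold change −1.33 ± 0.32, adjusted p = 0.0528), and was called at −1.34 without the 4 libraries. Cd33 was then called too, at −0.415 for the control antibody against none and at 0.68 for the IFNAR1 against the control antibody. The effect of the IFNAR1 antibody did not differ between genotypes for any gene by edgeR (0% of all genes), with 0 of the 7 members at an unadjusted 0.05 or by DESeq2, against 975 and 50 of all genes. For Siglec1 this difference was −0.51 ± 0.45 and for Cd300lf 0.24 ± 0.74 on the log2 scale, with 95% intervals of −1.39 to 0.37 and −1.20 to 1.68. Siglece (0.251 to 3.85 CPM) gave no call in this experiment and Siglecf was not tested.

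**Figure D4:**
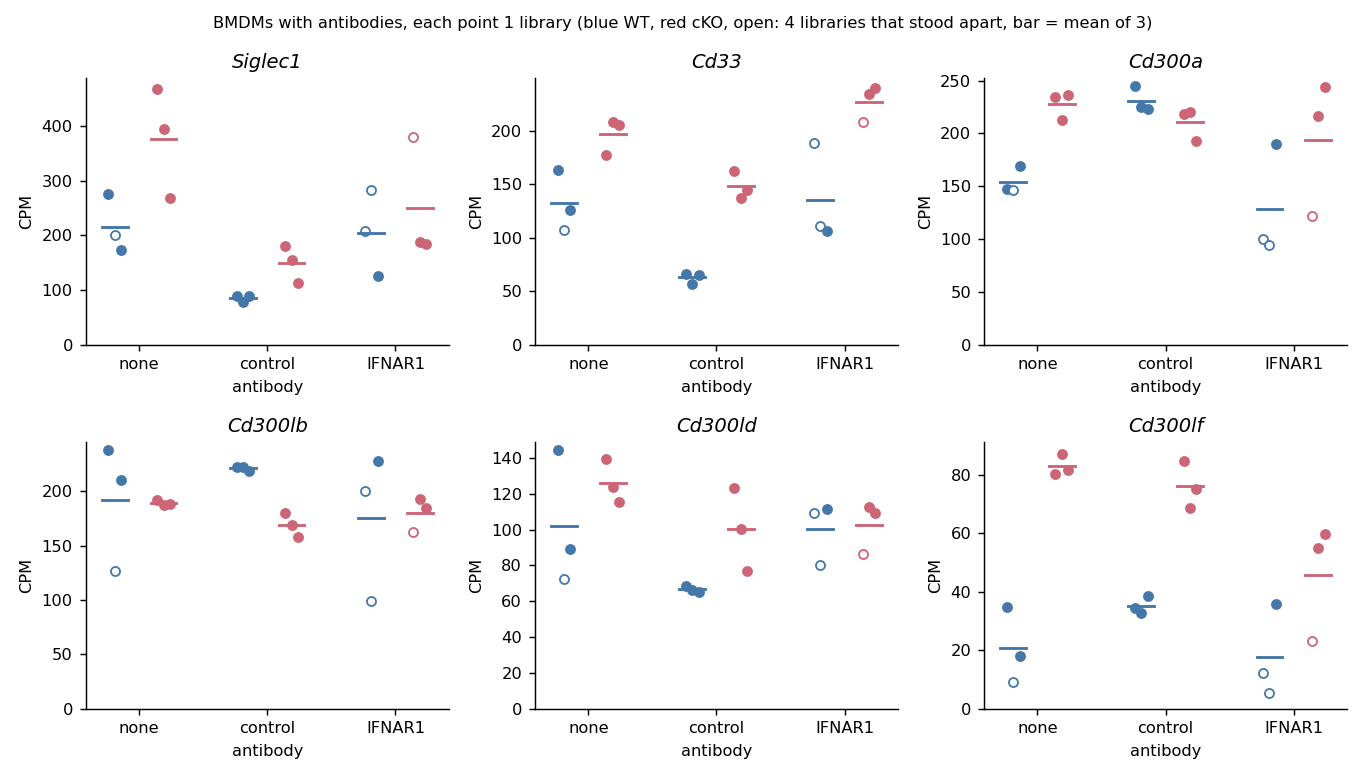
CPM (linear axis from 0) of 6 receptor genes by antibody in WT (blue) and cKO (red) BMDMs, with 1 point per library, a bar at the mean of 3 and open points for the 4 libraries that stood apart. The 3 WT libraries with control antibody lie close together at 56.8 to 66.6 CPM for Cd33, below all cKO libraries.

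The 3 sets of WT and cKO BMDMs, in an experiment of 21504555 to 45581528 counts a library, gave 4, 3 and 4 calls among 8 members, against 34.7%, 21% and 34.9% of all genes. Cd300lf was higher in cKO in each set. In set 1 it was at 22.2, 21.8 and 24.4 CPM in WT and 87.4, 84.0 and 103 CPM in cKO (log2 fold change 2.0 ± 0.12, adjusted p = 1.28e-11). In set 2 it was at 8.47, 7.71 and 9.22 CPM and 55.1, 56.6 and 59.6 CPM (log2 fold change 2.76 ± 0.12, adjusted p = 4.12e-14), and in set 3 at 26.4, 23.6 and 22.3 CPM and 83.0, 81.1 and 88.2 CPM (log2 fold change 1.80 ± 0.11, adjusted p = 6.25e-11). No WT library of any set reached the lowest cKO library. The size of the effect differed between sets (adjusted p = 0.000329), with the lowest WT and the lowest cKO levels in set 2. A difference of the cKO effect between sets was called for 18.7% of all genes and for 3 of the 8 members, Cd300lf, Cd33 and Siglecf. The test takes the 3 sets as independent. With set 2 against set 1 alone (23.6% of all genes called) and against set 3 alone (22.2%), these 3 were called in both, and Cd300a (0.72) was called against set 1.

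Cd300lb was lower in cKO in each set, at 291, 241 and 269.6 CPM in WT and 199, 196 and 189 CPM in cKO in set 1. The fitted values were −0.46 ± 0.09, −0.59 ± 0.09 and −0.50 ± 0.09 on the log2 scale in sets 1, 2 and 3, with adjusted p = 0.000211, 1.56e-05 and 7.18e-05. No single library removed any of the 3, and the effect was not called different between sets (adjusted p = 0.736). Siglec1 was higher in set 1, at 657, 289.7 and 530.2 CPM in WT and 1016, 889 and 1205 CPM in cKO (log2 fold change 1.07 ± 0.24, adjusted p = 0.00129), and in set 3 (log2 fold change 0.78 ± 0.24, adjusted p = 0.0147). In set 2 WT was already at 727, 937 and 809 CPM and cKO at 1061, 1160 and 1009 CPM (log2 fold change 0.38 ± 0.24, adjusted p = 0.298). The set 3 call was lost without WT replicate 2 (0.50) or 3 (0.72) or cKO replicate 3 (0.72) or with its own groups alone (0.83), and the sets were not called different for Siglec1 (adjusted p = 0.346).

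Cd33 differed in set 2 only, and its effect differed between sets (adjusted p = 8.92e-05). It was at 7.89, 9.07 and 7.99 CPM in WT and 35.9, 40.2 and 34.7 CPM in cKO of set 2, 4.43-fold higher (log2 fold change 2.15 ± 0.24, adjusted p = 4.31e-07). In sets 1 and 3 both genotypes were far above these values, at 110, 181 and 125 CPM in WT and 148, 161 and 191 CPM in cKO of set 1, and at 117, 151 and 128 CPM and 137, 126 and 162 CPM in set 3. Siglecf ran in the opposite pattern, higher in cKO in set 1 (0.997, 0.250 and 1.23 CPM in WT, 2.69, 2.81 and 1.79 CPM in cKO, log2 fold change 1.63 ± 0.40, adjusted p = 0.00238) and in set 3 (log2 fold change 1.32 ± 0.39, adjusted p = 0.0099), but not in set 2 (1.14, 2.29 and 1.26 CPM in WT, 0.845, 1.17 and 1.18 CPM in cKO, log2 fold change −0.56 ± 0.36, adjusted p = 0.315). The difference between sets was called for Siglecf (adjusted p = 0.00745). Of 4 eosinophil markers tested, 3 were higher in cKO in sets 1 and 3 and 1 in set 2, whereas Ccr3, the eotaxin receptor, was lower in cKO in each set, at 1.19 to 1.38 CPM against 3.03 to 5.63 CPM in set 1 and at 4.56 to 6.29 CPM against 56.7 to 75.2 CPM in set 2. The sum of the 6 eosinophil markers was 5.46 to 6.11 CPM in cKO and 4.07 to 6.95 CPM in WT of set 1, and the summed neutrophil markers were 59.3 to 110 CPM in WT against 196 to 281 CPM in cKO in set 1, and 101 to 176 CPM against 151 to 169 CPM in set 2. Their part in the Siglecf values was not tested.

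Same-numbered libraries of sets 1 and 3 deviated together from their group means (correlations of 0.283 to 0.685 in WT and 0.147 to 0.525 in cKO). By these correlations sets 1 and 3 may not be independent, and their calls are not counted as separate support. Chi-square per degree of freedom, over all pairs within a genotype, was 15.1 to 101 between sets 1 and 3. It was 62.5 to 281 between set 2 and the others, and 4.56 to 88.8 within a set, with overlapping ranges. Siglece (2.38 to 5.95 CPM over the sets), Cd300a and Cd300ld gave no call in any set. Cd300ld was at 188, 192 and 193 CPM in WT of set 2 and at 127, 105 and 109.7 CPM in WT of set 1, a gap that was not tested here.

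The double knockouts were compared with the mean of the 3 cKO sets and with the mean of the 3 WT sets, since no label ties a set to a double knockout. The deposited counts list 54146 genes for set 3 and cKO:Irf7KO, and 55536 for the other groups of this experiment. The paper plots each double knockout beside WT and cKO samples. A call against the mean can reflect a difference between sets, so values against single sets are given beside some of the calls below. How much of a call comes from such a difference was not tested. These fits also count sets 1 and 3 as separate libraries, though they may not be independent. In cKO:StingKO cells, Siglec1, Cd33 and Cd300lf were higher than in cKO, 3 of 8 members against 36.1% of all genes. Siglec1 was at 1211, 1548 and 1627 CPM, above every cKO and WT library of the sets (log2 fold change 0.61 ± 0.19, adjusted p = 0.0146 against cKO). This call was lost without cKO:StingKO replicate 2 (0.56) or 3 (0.52) and against set 1 (0.50) or set 2 (0.44) alone. Cd33 was at 198, 203 and 193 CPM (log2 fold change 1.05 ± 0.17, adjusted p = 4.97e-05) and Cd300lf at 95, 97.3 and 101 CPM (log2 fold change 0.37 ± 0.09, adjusted p = 0.00211). Both lay above the low cKO values of set 2, and against sets 1 and 3 alone neither was called (0.37 for Cd33 and 0.16 for Cd300lf). Stromal markers moved with this group, 3 of 5 being higher than in cKO, with a sum over 6 of 164 to 202 CPM against 23.6 to 70.0 CPM in the cKO sets, and their part was not tested.

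Against WT, cKO:StingKO cells had 5 of 8 members called (40.3% of all genes): Cd300lf (2.55 ± 0.08), Cd33 (1.89 ± 0.17), Siglec1 (1.35 ± 0.18) and Cd300a (0.38 ± 0.15) higher and Cd300lb (−0.66 ± 0.07) lower on the log2 scale. The Cd300a call, at adjusted p = 0.0492, was lost in 9 of the 12 fits that left out 1 library, at 0.30 to 0.41. It was kept only without WT set 1 replicate 1 or 3 or WT set 3 replicate 1. Cd33 against WT of set 1 alone was 0.52 and not called. Cd300lb in cKO:StingKO was at 176, 180.1 and 179.6 CPM, within the range of the cKO sets.

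In the libraries labelled cKO:MavsKO, Cd33 was lower and Cd300ld higher than in cKO, 2 of 8 members against 8.79% of all genes. Cd33 was at 28.6, 64.2 and 38.9 CPM (log2 fold change −1.12 ± 0.19, adjusted p = 0.000445) and Cd300ld at 199, 197 and 180.3 CPM (log2 fold change 0.58 ± 0.12, adjusted p = 0.00188). These values lie near set 2, and against set 2 alone Cd33 gave 0.25 and Cd300ld 0.22, neither called. All 5 stromal markers tested were higher than in cKO (sum over 6 of 82.1 to 294 CPM) and 5 of 7 neutrophil markers were lower (sum over 8 of 57.1 to 118 CPM against 151 to 319 CPM in the cKO sets), and their part was not tested. Against WT, 4 of 8 were called (42.6% of all genes): Cd300lf (1.98 ± 0.08), Siglec1 (0.71 ± 0.19) and Cd300ld (0.58 ± 0.12) higher and Cd300lb (−0.33 ± 0.07) lower. Against WT of set 2 alone, Siglec1 (0.18) and Cd300ld (0.01) were not called while Cd33 was called higher (2.40), and against WT of set 3 alone Cd300lb (−0.13) was not called.

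In cKO:Irf7KO cells, Cd33 was higher than in cKO, 1 of 8 members against 9.85% of all genes, at 106, 174 and 196 CPM (log2 fold change 0.73 ± 0.17, adjusted p = 0.00784). Against set 1 alone it was −0.07 and against set 3 alone 0.16, and the call was also lost without cKO:Irf7KO replicate 2 (0.66) or 3 (0.55). All 7 neutrophil markers tested were lower than in cKO (sum over 8 of 84.4 to 115 CPM), and their part was not tested. Against WT, 4 of 8 were called (31.5% of all genes): Cd300lf (2.06 ± 0.08), Cd33 (1.57 ± 0.17) and Siglec1 (0.65 ± 0.19) higher and Cd300lb (−0.73 ± 0.07) lower. Without cKO:Irf7KO replicate 3 Siglec1 (0.59) was lost, as it was against WT of set 2 alone (0.13) or with only the groups compared (0.68), and Cd33 was not called against WT of sets 1 and 3 (0.23). Cd300lf stayed above every WT library in the 3 double knockouts, at 56.6, 76.9 and 64.0 CPM in cKO:MavsKO and 56.7, 75.7 and 76.3 CPM in cKO:Irf7KO. The Sting, Mavs and Irf7 null alleles were crossed in from other mouse lines, that of Mavs with repeated backcrossing, and strain background cannot be told apart from the deletion.

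**Figure D5:**
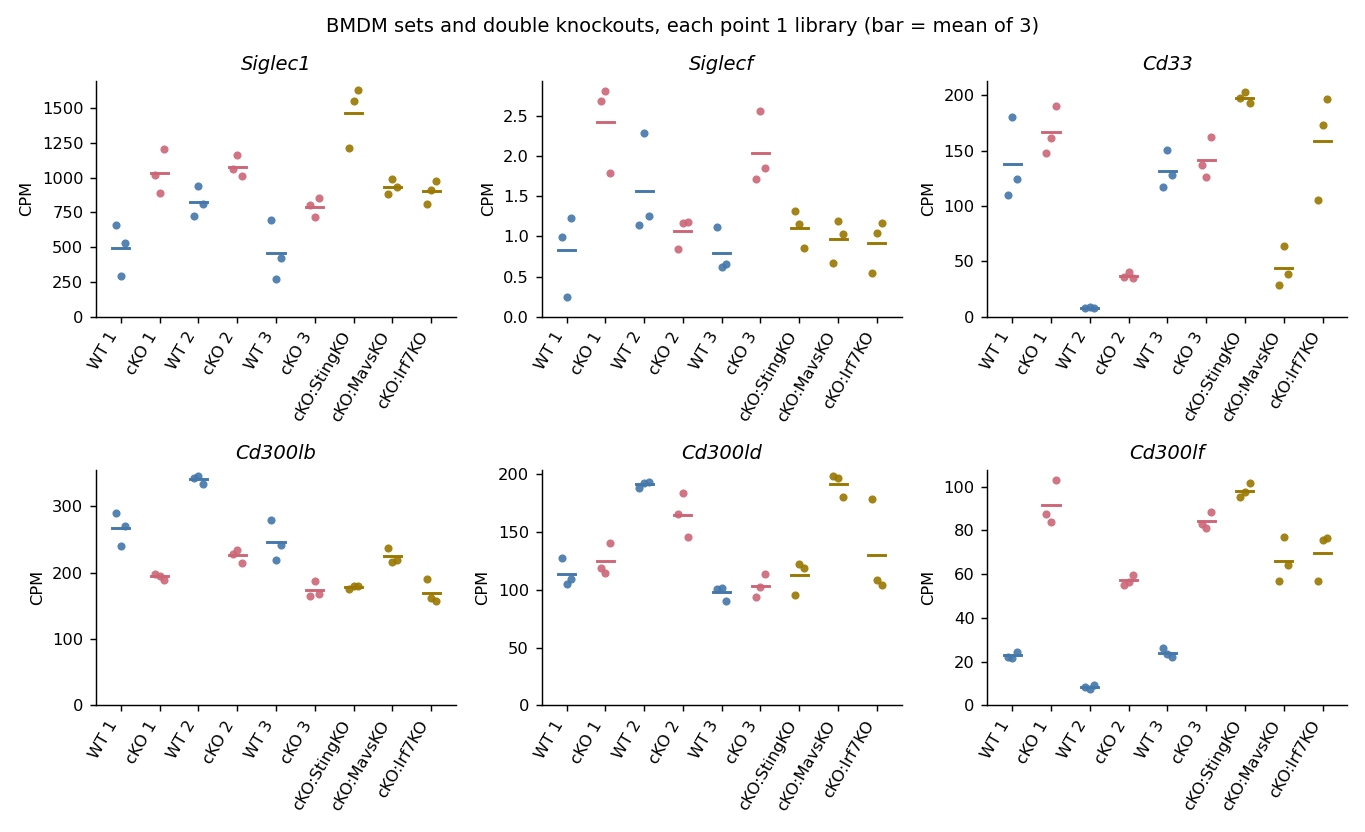
CPM (linear axis from 0) of 6 receptor genes in WT (blue) and cKO (red) BMDMs of sets 1 to 3 and in the double knockouts (ochre), with 1 point per library and a bar at the mean of 3. Cd33 in set 2 (7.89, 9.07 and 7.99 CPM in WT) lies far below sets 1 and 3, and cKO:MavsKO lies near set 2.

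Of the 13 other Siglec and Cd300 genes, 4 to 11 were expressed enough to be tested in an experiment. On day 3, 2 of 9 were higher in cKO (7.73% of all genes were called), Cd22 (log2 fold change 1.71), an inhibitory Siglec of B cells, and Cd300ld3 (1.5). B cell markers moved with Cd22 on day 3, with 4 of 6 higher and a sum of 16.6 to 17.2 CPM in WT against 39.2 to 69.2 CPM in cKO, and their part was not tested. In the sets, 6, 5 and 5 of 11 were higher and 1, 0 and 1 lower in sets 1, 2 and 3, where 34.7%, 21% and 34.9% of all genes were called. Among them Cd300e, an activating receptor that couples to DAP12, was higher by 2.09, 3.06 and 2.28, Siglecg, an inhibitory Siglec, by 3.17, 2.04 and 2.51, and Cd300c by 1.30, 2.47 and 1.43. IFNγ lowered 4 of 6 in WT (40.1% of all genes called), among them Cd300lg (−2.09), Cd300e (−1.52) and Cd22 (−1.34), and raised Mag (0.94), the myelin-associated Siglec. In cKO (33.6%) it lowered Cd22 (−1.04) and raised Mag (1.07). Under IFNγ, Cd300e (2.92) and Cd300ld3 (1.68) were higher in cKO than in WT.

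Of 16 signalling partners of these receptors, 1 was higher in cKO on day 7 (1.4% of all genes called), Plcg2 (log2 fold change 0.56), a phospholipase. In sets 1, 2 and 3, 8, 3 and 7 were higher and 1, 3 and 1 lower, against 34.7%, 21% and 34.9% of all genes called in either direction, with Lyn, the kinase that phosphorylates the tail motifs, higher by 0.73, 0.41 and 0.68 and Plcg2 by 0.65, 0.58 and 0.64. IFNγ raised 6 and lowered 2 of 16 in WT (40.1% of all genes called), among those raised Socs3 (3.91), a feedback inhibitor of cytokine signalling, Ptpn6 (1.45), which encodes SHP-1, and Lyn (1.22). In cKO it raised 6 and lowered 1 (33.6%), among those raised Socs3 (2.95), Ptpn6 (1.04) and Lyn (0.84). Of the genes that make and transfer sialic acid, the ligand of the Siglecs, 4 of 18 were higher and 5 lower with IFNγ in WT and 4 and 4 in cKO, where 40.1% and 33.6% of all genes were called. Cmah, the enzyme that hydroxylates sialic acid, was lower at −5.94 in WT and −5.44 in cKO, St6gal1, a sialyltransferase for N-glycans, was lower at −2.44 and −2.66, and St8sia1 was higher at 3.73 and 2.59. In the sets St8sia1 (2.57, 3.23 and 3.05) and St3gal5 (1.40, 0.90 and 1.37), which make gangliosides, were higher in cKO, among 4 of 20 genes higher in each set and 4, 3 and 4 lower, again beside 34.7%, 21% and 34.9% of all genes.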

How the data were processed

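RNA was measured in 81 libraries. The authors trimmed reads with cutadapt and aligned them to mm10 with STAR, per the submitters' notes, and deposited counts of reads per gene for each library (unstranded column, not normalized), with versions not given in the sources used here. Reads mapping to several places are not in these counts, so sequence shared by related receptor genes is undercounted. Entries of the deposited counts that name no gene (unmapped, multimapping, no feature, ambiguous) were left out and came to 18.1% to 78.1% of all reads in the files. Gene names and positions were those of GENCODE M21 and RefSeq. From the counts, edgeR 4.0.16 (R 4.3.3, limma 3.58.1) fitted TMM-scaled quasi-likelihood models with 1 group factor per experiment, after filterByExpr, and p-values were adjusted by Benjamini-Hochberg over all genes tested. Genes with an adjusted p under 0.05 are those called. CPM are counts scaled to the TMM library sizes of the tested genes. TPM are counts of all annotated genes divided by exonic length and scaled to the same total per library, without TMM. Errors are SE of the log2 fold change unless marked SD. Alternatives were DESeq2 1.42.0, other scaling and filters, the strand columns, a replicate block, leaving out libraries, and single sets as reference. Scripts were tested on simulated counts.

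The members and gene lists were chosen with earlier results of these data known. Members are named in every comparison, other listed genes where called, at most 4 per list and comparison with the largest changes first, and, for members called in at least 4 of the 9 comparisons of cKO and WT, the 3 genes with the nearest log2 fold changes. A gene and a motif that these rules would name are not reported here. Groups came from the labels. The labels give replicate numbers without saying what they share, so pairing was read from deviations of same-numbered libraries from their group means, taken as pairs where all 3 correlations exceeded 0.1. Among groups compared with each other, this held for WT and cKO on days 3, 5 and 7 (0.104 to 0.459), for the cKO days with each other (0.232 to 0.472), for peritoneal WT and cKO (0.127 to 0.353), for WT with and without IFNγ (0.535 to 0.705), for WT with control and no antibody (0.172 to 0.494) and for WT and cKO of sets 1 and 3 (0.143 to 0.406). It also held for cKO:Irf7KO and WT of set 3 (0.134 to 0.321).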

Additional observations from a re-analysis of the deposited data

Results flagged for a closer look

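The effect of the cKO genotype differed between the 3 BMDM sets, by a test of the difference itself across sets (edgeR quasi-likelihood, Benjamini-Hochberg over all genes), for 3 of the 8 receptor genes and 3 other genes of the families. Siglecf had log2 fold changes of 1.63 ± 0.40, −0.56 ± 0.36 and 1.32 ± 0.39 (SE) in sets 1, 2 and 3 (adjusted p = 0.00745). Cd33 had 0.27 ± 0.22, 2.15 ± 0.24 and 0.11 ± 0.22 (adjusted p = 8.92e-05). Cd300lf had 2.0, 2.76 and 1.80, the same direction with a larger change in set 2 (adjusted p = 0.000329). Cd22 had 1.26, −0.25 and 1.27 (adjusted p = 0.00336), Cd300lg had 0.28, 2.87 and 0.06 (adjusted p = 8.5e-07), and Cd300ld2, a low gene, had 2.84, 0.90 and −1.33 (adjusted p = 0.0108). For 18.7% of all genes the effect differed between sets in the same test. The test takes the sets as independent, which sets 1 and 3 may not be. With set 2 against set 1 alone and against set 3 alone, Siglecf (adjusted p = 0.00748 and 0.00502), Cd33 (0.000429 and 0.000195), Cd300lf (0.0021 and 0.000449), Cd22 (0.00227 and 0.0014) and Cd300lg (5.88e-06 and 4.82e-06) were called in both, and Cd300ld2 only against set 3 (0.133 and 0.0413). Groups held 2 or 3 libraries, so no library was tested against the rest of its group.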

How the results depend on the processing

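Of the 66 member calls, 47 were kept in every fit that left out 1 library and 19 were lost in at least 1. With RLE size factors all 251 results kept their call status, and those called kept their direction. DESeq2 added 13 calls and lost 0, no filter added 16 and lost 1, and the strand columns lost 1, Cd300a with the IFNAR1 antibody in WT (−0.82). Fitting only the groups compared lost 16 calls and added 27. Those lost are named above, apart from Cd300a in cKO:StingKO against WT (0.40).

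The number of member calls for cKO against WT on days 3 to 7 was 6 (5 to 7 with 1 library left out), and 9 with the replicate block. For the day contrasts it was 6 (5 to 8), 10 with the replicate block, which added the Siglec1 and Siglece calls in cKO given above, and 19 without all libraries numbered 1, an alternative chosen after seeing the data because Siglece stood high in them. For the change of the cKO effect from day 3 to day 7 it was 0 (0 to 1) and 1 without those libraries. On day 8 it was 5 for cKO against WT (2 to 6) and 11 for IFNγ (9 to 12). With the 2 contradictory libraries placed by title these became 2 and 0, and by library name every call was kept. It was 1 in peritoneal macrophages (0 to 1), and 3 with DESeq2 or with no filter. It was 2 for cKO against WT with antibodies (1 to 5), 7 with only the groups compared, and 11 without the 4 libraries chosen after seeing the data for their low Cd300lf or Cd33. For the antibody effects it was 5 (1 to 6), and 8 without those 4. It was 14 for the sets (13 to 16), 15 and 14 with set 3 or set 1 left out of the difference between sets (chosen after seeing the data), and 19 for the double knockouts (17 to 21). In comparisons whose numbers do not pair the libraries, the replicate block added Siglec1 for WT day 7 against day 5 (1.30) and for cKO with control against no antibody (−1.33; same-numbered correlations 0.058 to 0.383) and Cd300lb for cKO:Irf7KO against cKO (−0.22), and lost Cd300a under IFNγ (1.14); it changed no other call of a member. Crossing the numbers of the cKO IFNγ libraries, whose correlation was −0.141, left 11 calls for IFNγ.

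Directions turned in 6 cases where the main fit or the alternative called the gene, and the cause was not tested. Changes of sign between fits that both made no call were not counted. Cd33 turned for cKO:MavsKO against set 2 of cKO (0.25) and of WT (2.40) and for cKO:Irf7KO against cKO of set 1 (−0.072). Cd300ld turned for cKO:Irf7KO against WT of set 2 (−0.55) and without cKO:Irf7KO replicate 1 (−0.28, and up to 0.16 without other libraries). Cd300a turned for WT day 7 against day 3 without WT day 7 replicate 2 (−0.80, and up to 0.435 without other libraries).

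The number of all genes called moved by over 1.5 times in 19 of 34 comparisons with DESeq2, 13 with no filter and 8 with the replicate block. Depth limited Siglecf (2 to 48 counts in WT of the time course) and Siglece under IFNγ (0 to 2 counts).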

Other observations

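In the 2 cKO libraries of day 8 whose title and library name disagree, levels are given as CPM of the whole library. The library titled IFNγ and named untreated held 341 CPM of Siglec1, 4.34 of Siglece, 0.620 of Siglecf, 217 of Cd33, 189 of Cd300a, 227 of Cd300lb, 163 of Cd300ld and 74.3 of Cd300lf. The library titled untreated and named IFNγ held 355 CPM of Siglec1, 0.667 of Siglece, 0.476 of Siglecf, 22.8 of Cd33, 74.9 of Cd300a, 87.7 of Cd300lb, 57.9 of Cd300ld and 114 of Cd300lf.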
